A study of Mus musculus with 12 samples.

Results

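Blood lineage transcription factors are the nuclear proteins that set and keep the identity of blood cells. The 34 factors described here were named one by one from general knowledge of mouse haematopoiesis, and all 34 were found among the 19910 gene symbols of the count table. They comprise the C/EBP family with the repressor Gfi1, a monocyte and macrophage set, the RUNX family, the factors of stem and progenitor cells, the Ikaros family, the Id inhibitors and the GATA cofactor Zfpm1. Each of the 34 also passed the filter on low counts, which kept 10993 genes.

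RNA was sequenced from bone marrow of C57BL/6 mice in 4 groups of 3 libraries that differed in the retroviruses given to the cells. Donor marrow came from female C57BL/6J mice aged 6 to 10 weeks and was transduced with retrovirus produced in 293T17 cells, a human embryonic kidney packaging line. The empty group carried a pair of control vectors, and the SETBP1 group carried the D868N mutant of SETBP1, a nuclear oncoprotein mutated in myeloid neoplasms, with an empty vector. The NRAS group carried the G12D mutant of NRAS, an activated RAS GTPase, with an empty vector, and the SETBP1+NRAS group carried both mutants. All 4 groups, the empty one included, were thus transduced marrow, and the labels call all of them leukemia cells. The vector promoter, a sort of the cells, a transplant and the origin of the replicates (mouse, transduction or culture) are not given in the sources used here. P-values therefore measure the spread between these libraries, which may be technical.

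Library totals ran from 7085894 to 8864919 counts. The Nras count was 626 to 741 in the 6 libraries without mutant NRAS and 10517 to 13502 in the 6 with it, and Setbp1 was at 0 in the 6 libraries without mutant SETBP1 and at 5 to 17 in the 6 with it, in accordance with the labels. SETBP1 replicate 3 stood apart: its log2 CPM correlated across genes with the other SETBP1 libraries at 0.946 and 0.953, against 0.984 to 0.991 for every other pair of replicates, and it had the fewest genes with a count, 11835 against at most 12800. Calls that change without this library are named in the account of each comparison. The 4 haemoglobin genes on the erythroid list were at 0 in every library, and its other genes summed to 76.0 to 285 normalised CPM. The counting tool is not given, so the 0 cannot be read as a lack of red cells. The T and NK cell markers summed to at most 0.996 normalised CPM and the B cell markers to at most 23.5. Granule, monocyte and mast cell markers were abundant, as given beside the factors below.

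C/EBPα and its relatives bind DNA as dimers and switch on granule and receptor genes of granulocytes and monocytes, with C/EBPε and Gfi1 acting at the neutrophil end. PU.1, IRF8, KLF4 and c-Maf favour monocytes, macrophages and dendritic cells, and Gfi1 represses part of that programme. Tal1, Lyl1 and Lmo2 form one complex with GATA factors in progenitors, RUNX and ETS factors sit on the same enhancers, and Id proteins pair with E proteins and keep them off DNA.

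In 4 members, Klf2, Runx2, Id2 and Gfi1, no group of 3 libraries overlapped any of the other 3 groups; 3.07% of the 10993 genes had such an order. The 250 bases upstream of the transcription start of these 4 genes are shown because their groups did not overlap. The gap between empty vectors and SETBP1 was narrow for Klf2 (highest 33.5 against lowest 33.8 normalised CPM) and Id2 (81.5 against 82.2). The sequences are those of RefSeq on GRCm38.p6, 5′ to 3′ on the gene's strand, with every match to a searched motif, on either strand, in capitals: CCACCC (a KLF-type box), TTGCNNAA (C/EBP), TGTGGT (RUNX) and the MEF2 motif.
Klf2, chr8:72318812-72319061, plus strand: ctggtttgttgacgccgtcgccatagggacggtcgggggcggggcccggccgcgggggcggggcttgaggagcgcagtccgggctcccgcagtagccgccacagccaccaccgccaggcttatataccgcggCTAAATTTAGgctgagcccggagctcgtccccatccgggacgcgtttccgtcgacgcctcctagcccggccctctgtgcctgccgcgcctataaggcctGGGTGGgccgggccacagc
Runx2, chr17:44814628-44814877, minus strand: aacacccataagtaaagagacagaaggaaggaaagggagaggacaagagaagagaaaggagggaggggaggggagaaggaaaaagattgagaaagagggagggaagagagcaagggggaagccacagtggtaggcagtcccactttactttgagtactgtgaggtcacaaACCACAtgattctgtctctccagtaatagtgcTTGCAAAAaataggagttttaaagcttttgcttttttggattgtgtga
Id2, chr12:25096093-25096342, minus strand: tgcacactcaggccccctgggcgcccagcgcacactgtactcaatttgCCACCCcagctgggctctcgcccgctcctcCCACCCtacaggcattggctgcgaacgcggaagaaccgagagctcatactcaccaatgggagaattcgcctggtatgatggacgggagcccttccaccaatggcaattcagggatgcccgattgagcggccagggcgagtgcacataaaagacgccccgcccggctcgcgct
Gfi1, chr5:107725806-107726055, minus strand: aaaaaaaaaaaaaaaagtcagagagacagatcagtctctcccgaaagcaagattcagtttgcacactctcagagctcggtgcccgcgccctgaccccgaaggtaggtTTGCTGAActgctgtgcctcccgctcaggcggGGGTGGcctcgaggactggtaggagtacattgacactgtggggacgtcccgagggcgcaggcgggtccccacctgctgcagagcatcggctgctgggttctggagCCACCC

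The Klf2 window held 1 KLF-type box and was the one member window with the MEF2 motif, which 3.20% of 32851 promoter windows held. The Runx2 window, whose start site lies 170 bases from the gene's outermost annotated start, held a RUNX and a C/EBP match. The Id2 and Gfi1 windows each held 2 KLF-type boxes, and Gfi1 also held a C/EBP match. Among the 26 members with a promoter entry, CCACCC was found in 13, or 50%, against 28.1% of all windows. TTGCNNAA was found in 5 members (19.2%, against 9.56%) and TGTGGT in 2 (7.69%, against 14.05%). AGATAA, which GATA factors bind, was found in 1 member, Tal1, and in 9.99% of all windows, and the cyclic AMP response element TGACGTCA in 1 member, Hlf, and in 1.55%. The AP-1 motif TGANTCA, the ETS motifs CCGGAAGT and GAGGAAGT, which share their last 6 letters, and the CArG box were found in none of the 26, against 6.75%, 2.88%, 2.44% and 1.47% of all windows. Both strands were searched, the motifs were chosen after the counts had been seen, and a match describes letters and not a bound site. Cebpd, Cebpe, Fli1, Id1, Ikzf2, Lmo2, Maf and Spi1 were not matched.

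Levels were first placed on a scale comparable between genes, normalised CPM (library-scaled count frequency) per kilobase of annotated exon. Cebpb, Spi1 and Lmo2 ranked highest in every group. On this scale Cebpb reached 409.9 ± 53.8 (SD, n = 3) in the empty group, Spi1, which encodes PU.1, reached 220.4 ± 8.85, and Lmo2, the bridging protein of the Tal1 complex, reached 87.5 ± 5.03. Mecom, which encodes the stem cell factor EVI1, was lowest in every group, at 0.155 ± 0.0571 in the empty group. Its counts were 6, 11 and 7 there and 23, 7 and 0 with SETBP1, and no change in Mecom was detectable at this depth. All levels below are normalised CPM without the length term, given for replicates 1, 2 and 3, and are compared within a gene only.

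**Figure D1:**
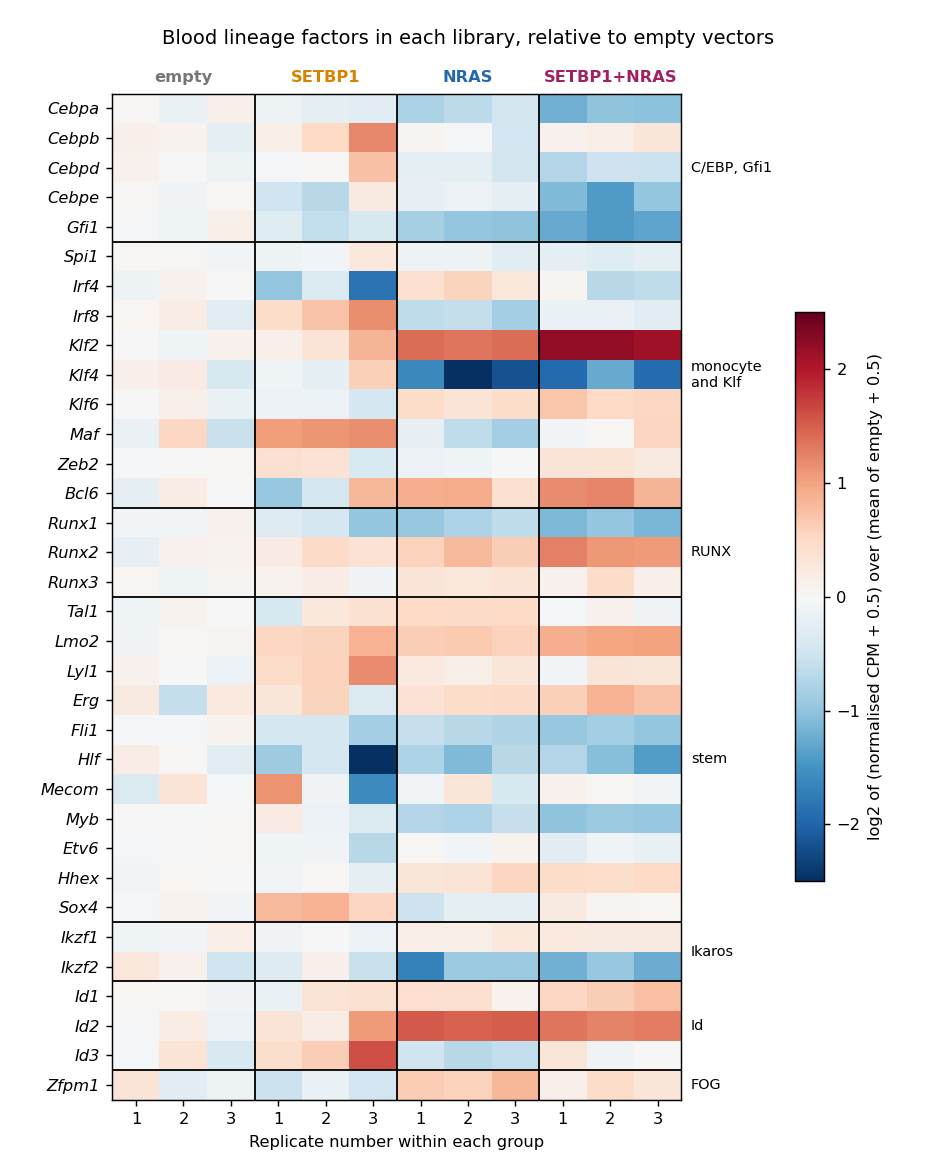
Colour gives the log2 ratio of each factor's normalised CPM in a library to its mean in the empty group, with 0.5 added to both; rows are the 34 factors ordered by role and columns the 12 libraries by group and replicate. Klf2 and Id2 run from low in the empty libraries to high with NRAS, Gfi1, Cebpa and Runx1 run the other way, and Irf8, Cebpb and Id3 are highest in the SETBP1 libraries, SETBP1 replicate 3 in particular.

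With mutant SETBP1 alone, 12 of the 34 factors differed from empty vectors past the threshold (adjusted p under 0.05 over all genes tested), 9 higher and 3 lower. That is 35.3% of the factors, against 14.9% of all genes tested (8.31% higher and 6.55% lower). The libraries of the 2 groups did not overlap in 16 factors, or in 33.2% of all genes. Irf8, Cebpb, Maf, Lmo2, Lyl1, Sox4, Id2, Id3 and Klf2 rose, and Gfi1, Runx1 and Fli1 fell. The median change of the factors was 0.10 on the log2 scale, and that of all genes was -0.01. Only 2 of the 12, Lmo2 and Sox4, were past the threshold under each of 19 alternative settings, and when the 6 libraries were fitted alone only these 2 remained (1.03% of all genes). Without SETBP1 replicate 3 there were 10 (15.3% of all genes): Cebpb, Klf2, Lyl1 and Id2 were no longer past it and Cebpe (log2 -0.60, adjusted p 0.00238) and Zeb2 (log2 0.38, adjusted p 0.00648) came past it.

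With mutant NRAS alone, 15 factors were past the threshold against empty vectors, or 44.1%, against 32.5% of all genes. Of these, 7 rose (all genes, 17.0%): Id2, Klf2, Zfpm1, Runx2, Lmo2, Klf6 and Hhex. The 8 that fell (all genes, 15.5%) were Klf4, Ikzf2, Gfi1, Runx1, Myb, Irf8, Fli1 and Cebpa. The median change was -0.06, and -0.01 over all genes, and in 28 factors the groups did not overlap (all genes, 56.3%). All 15 stayed past the threshold in each of the 19 alternatives, and the count rose to 24 without SETBP1 replicate 3 and to 25 when the 6 libraries were fitted alone (47.0% and 49.1% of all genes). The 9 gained without that library, which is outside this comparison, were Bcl6, Runx3, Tal1 and Id1, which were higher, and Cebpd, Spi1, Hlf, Sox4 and Id3, which were lower. Their log2 changes moved little: Hlf was at -0.92 with it (adjusted p 0.273) and -0.92 without it (adjusted p 0.00556).

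The NRAS contrast was measured a second time in libraries that it does not share, SETBP1+NRAS against SETBP1. There 25 factors, or 73.5%, were past the threshold, 10 higher and 15 lower, against 42.4% of all genes (20.9% higher and 21.5% lower). All 15 factors called with NRAS against empty were called there again with the same sign, and 30 of the 34 had the same sign in both (88.2%, against 78.5% of all genes). The share of all genes called with NRAS that were called again was not counted. Both comparisons also used the spread estimated in the same fit. The further 10 were Bcl6, Id1 and Ikzf1, which were higher, and Cebpd, Cebpe, Spi1, Maf, Lyl1, Sox4 and Id3, which were lower. The median change was -0.19, against -0.0046 over all genes, and 25 factors did not overlap between the groups (all genes, 48.8%). Of the 25 calls, only that of Lyl1 was lost without SETBP1 replicate 3 (46.5% of all genes).

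Adding mutant SETBP1 to mutant NRAS put 2 factors past the threshold against NRAS alone, 5.88% against 1.91% of all genes: Klf2 rose (0.528% of all genes rose) and Cebpe fell (1.38% of all genes fell). At an unadjusted p under 0.05 there were 17, or 50%, against 11.67% of all genes, and the groups did not overlap in 24 factors (all genes, 25.2%). The count was 15 when the 6 libraries were fitted alone and 13 without SETBP1 replicate 3, a library outside this comparison (8.37% and 7.52% of all genes). The 11 gained without that library were Irf4, Zeb2, Lmo2, Fli1, Myb, Sox4 and Id3 together with Cebpa (log2 -0.44, adjusted p 0.00873), Gfi1 (log2 -0.40, adjusted p 0.00886), Irf8 (log2 0.49, adjusted p 0.00344) and Runx2 (log2 0.48, adjusted p 0.0217). The direction of the SETBP1 change matched that seen without NRAS in 24 of 34 factors (70.6%, against 64.3% of all genes), from libraries the pair of comparisons does not share.

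Both mutants together differed from empty vectors in 18 factors, or 52.9%, against 40.6% of all genes. There 8 were higher (all genes, 20.8%) and 10 lower (all genes, 19.8%), with a median change of 0.10 against -0.01 over all genes, and the groups did not overlap in 24 (all genes, 61.2%). Without SETBP1 replicate 3 there were 23 (53.7% of all genes), the 5 gained being Zeb2, Erg and Ikzf1, which were higher, and Hlf and Etv6, which were lower. For the interaction, the amount by which the log2 effect of SETBP1 differed between the NRAS and the empty background, edgeR and DESeq2 each called 0 of the 34, and edgeR called 0.0455% of all genes. At an unadjusted p under 0.05, edgeR counted 6 factors, or 17.6%, against 12.9% of all genes, which is near that background. Without SETBP1 replicate 3, Klf2 (log2 0.57, adjusted p 0.0353) and Id2 (log2 -0.49, adjusted p 0.0464) were past the threshold, against 0.990% of all genes.

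**Figure D2:**
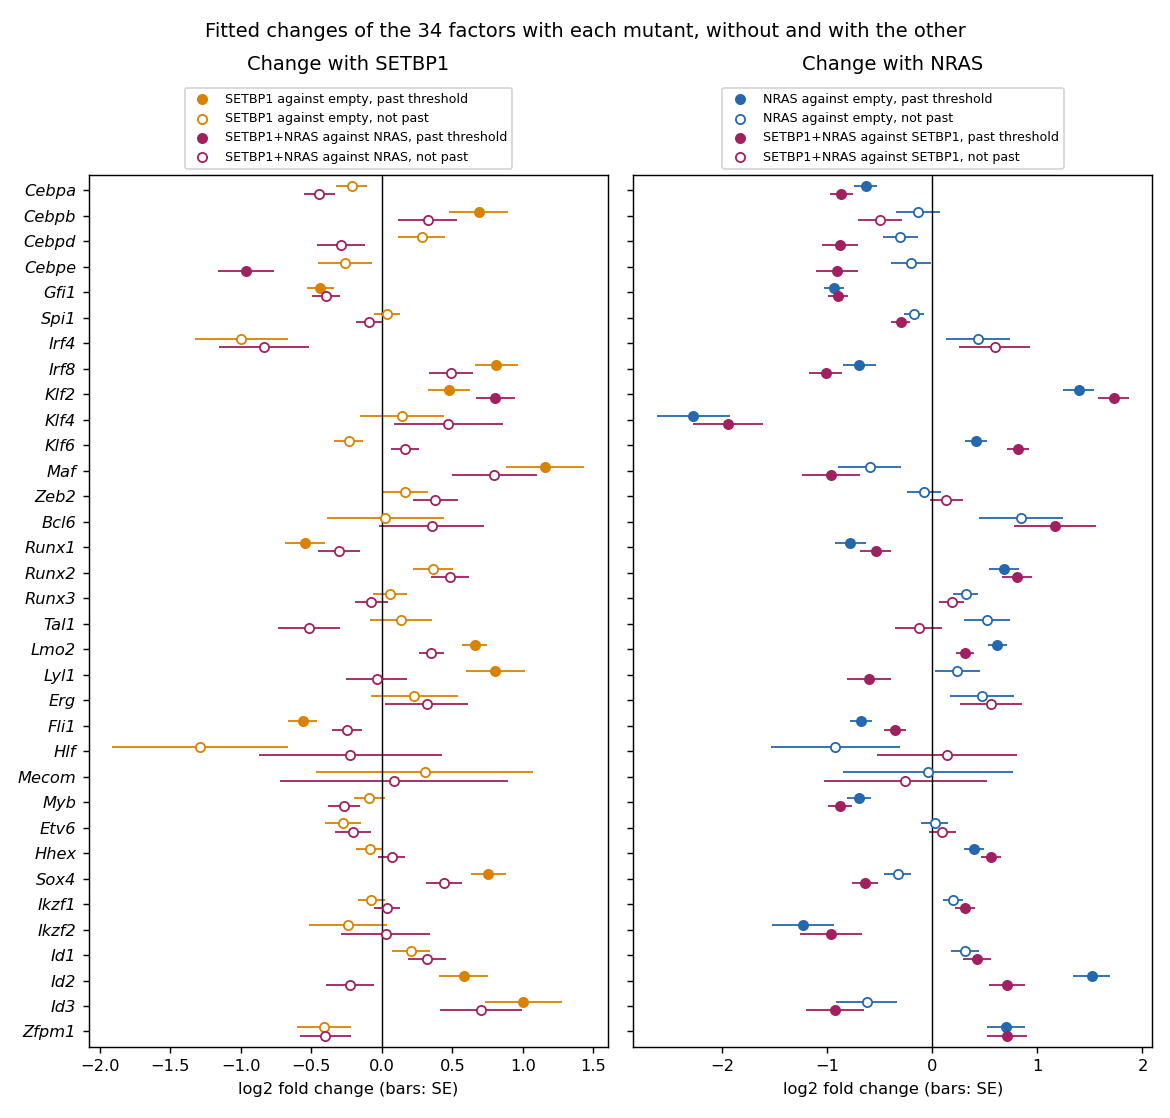
Log2 fold change of each factor (horizontal axis) with SETBP1, left, and with NRAS, right, each without and with the other mutant; bars are 1 standard error of the edgeR fit and filled points passed the adjusted threshold. The NRAS comparison and its repeat on the SETBP1 background hold the largest changes, Klf4 at -2.27 and -1.94, and with SETBP1+NRAS against NRAS only Klf2 and Cebpe are filled.

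Among the granulocyte factors, Gfi1, a zinc finger repressor needed for neutrophils, was highest with empty vectors and lowest with both mutants. Gfi1 stood at 168, 160.0 and 190.1 in the empty libraries and 139, 113 and 129.9 with SETBP1. It stood at 96.99, 87.9 and 85.8 with NRAS and 72.03, 64.5 and 69.02 with both. No group overlapped another. SETBP1 alone lowered Gfi1 1.35-fold (log2 -0.44, SE 0.10, adjusted p 0.0119), NRAS alone 1.91-fold (log2 -0.94, SE 0.10, adjusted p 7.65e-06) and both 2.52-fold (log2 -1.33, SE 0.10, adjusted p 1.75e-07). Between SETBP1+NRAS and NRAS the difference of -0.40 did not pass the test (adjusted p 0.0626).

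Cebpa, the founding C/EBP factor of granulocyte and monocyte progenitors, was at 104, 90.5 and 111 in the empty libraries, at 58.4, 64.5 and 73.6 with NRAS and at 44.2, 50.2 and 50.1 with both mutants. Every NRAS library was below every empty library, and every SETBP1+NRAS library was below every NRAS library. Cebpa fell with NRAS (log2 -0.63, SE 0.11, adjusted p 5.33e-04) and 2.11-fold with both against empty vectors (adjusted p 3.98e-06). Between SETBP1+NRAS and NRAS its difference of -0.44 did not pass the test (adjusted p 0.0626). The SETBP1 libraries, at 93.7, 85.7 and 83.6, overlapped the empty ones (log2 -0.21, adjusted p 0.176).

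Cebpe, the C/EBP factor of late granule genes, was lowest with both mutants. Its levels were 26.99, 21.8 and 29.7 there, against 51.00, 52.6 and 49.4 with NRAS, 41.5, 35.9 and 68.98 with SETBP1 and 59.8, 55.5 and 60.7 with empty vectors. The SETBP1+NRAS libraries lay below every other library. Cebpe fell against NRAS (log2 -0.96, SE 0.20, adjusted p 0.0243), against SETBP1 (adjusted p 0.0026) and against empty vectors (adjusted p 3.62e-04), while NRAS against empty differed by -0.20 with an adjusted p of 0.454. The call against NRAS was lost when any 1 of the 6 libraries of that comparison was left out, and the highest SETBP1 value belonged to replicate 3.

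Cebpb, the C/EBP factor of activated macrophages, was instead highest with SETBP1. It was at 685, 876 and 1416 there and at 671, 655 and 523 with empty vectors. SETBP1 replicate 3 held the highest value of the 12 libraries, and although Cebpb passed the test (log2 0.69, SE 0.21, adjusted p 0.0432), it did not without that library (log2 0.34, adjusted p 0.0764). The call was also lost without any single empty or SETBP1+NRAS library and without NRAS replicate 1 or 2. Fitting only the groups compared, the replicate number as a block and a threshold of 0.01 removed it too. Cebpd, which shares the C/EBP dimer partners, ranged from 60.6 to 70.1 with both mutants and from 92.3 to 108 with empty vectors, and fell by 0.60 on the log2 scale (adjusted p 0.0121). The exons of Cebpd overlap those of Spidr on the opposite strand, and the strand rule of the counting is not given. Reads in the shared stretch, whose length was not measured, therefore cannot be told apart.

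The summed granulocyte markers were lower with each mutant, and not all of these factors were. Against empty vectors Cebpe with NRAS and Cebpa with SETBP1 did not pass the test, and Cebpb rose with SETBP1. The 7 early granule genes in the table, among them Mpo and Elane, summed to 25152 to 27796 normalised CPM in the empty libraries, 18520.1 to 20351 with SETBP1, 10003 to 11624 with NRAS and 5809.6 to 6362 with both. All 7 fell with NRAS (15.5% of all genes fell) and 4 of 7 with SETBP1 (6.55% of all genes fell). The 12 late neutrophil genes summed to 6972 to 7783, 3246 to 5015, 2209 to 2883 and 941 to 1089 in the same order of groups. Gene by gene this list split with NRAS, where 7 fell and 2 rose against empty vectors (15.5% of all genes fell and 17.0% rose). With SETBP1 9 of the 12 fell and 0 rose (6.55% and 8.31% of all genes). With both mutants 9 fell and 0 rose (19.8% and 20.8% of all genes). Their part in the levels of Gfi1, Cebpa and Cebpe was not tested, and in bulk RNA fewer cells of a type and less RNA per cell cannot be told apart.

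Among the monocyte and macrophage factors, Irf8, which drives monocytes and dendritic cells, moved in opposite directions with the 2 mutants. Irf8 was at 236, 283 and 385 with SETBP1 and at 177, 195 and 142 with empty vectors. It was at 111, 113 and 94.9 with NRAS and at 152, 153 and 143 with both. The SETBP1 libraries lay above, and the NRAS libraries below, every empty library, and the SETBP1+NRAS libraries lay inside the empty range. Irf8 rose 1.76-fold with SETBP1 (log2 0.81, SE 0.15, adjusted p 0.00628) and fell 1.62-fold with NRAS (log2 -0.69, SE 0.16, adjusted p 0.00376). Without SETBP1 replicate 3, which held the highest value, the SETBP1 change kept its call (log2 0.59, adjusted p 9.90e-04). The 2 comparisons share the empty libraries.

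Klf4, a zinc finger factor of monocytes, and its relative Klf2, which restrains inflammatory genes, went opposite ways with NRAS. Klf4 was at 13.9, 14.7 and 9.45 with empty vectors and 11.8, 10.7 and 19.5 with SETBP1. It was at 3.83, 1.62 and 2.41 with NRAS and 2.94, 4.99 and 2.96 with both. No library with NRAS reached any library without it. Klf4 fell 4.83-fold with NRAS (log2 -2.27, SE 0.35, adjusted p 2.26e-04) and 3.84-fold with SETBP1+NRAS against SETBP1 (adjusted p 4.28e-04). The Klf4 counts behind the NRAS group were 29, 12 and 19, so its level there carries a large counting error.

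Klf2 rose in order of groups, from 30.98, 28.95 and 33.5 with empty vectors and 33.8, 39.5 and 56.3 with SETBP1. It was at 83.2, 79.1 and 83.2 with NRAS and 146, 147 and 137 with both mutants. No group overlapped another. Klf2 rose 2.63-fold with NRAS (log2 1.39, SE 0.15, adjusted p 9.15e-06), a further 1.75-fold with both against NRAS (log2 0.81, SE 0.14, adjusted p 0.00797) and 4.60-fold with both against empty vectors (adjusted p 6.96e-08). The rise with SETBP1 alone (log2 0.47, SE 0.15, adjusted p 0.0482) was past the threshold in 5 of 19 alternatives, and that of both against NRAS in 18, all but the one without NRAS replicate 2 (adjusted p 0.0503). The third KLF factor, Klf6, was at 115, 125 and 101 with empty vectors and 156, 143 and 156 with NRAS, and rose by 0.42 on the log2 scale (adjusted p 0.00661). The Klf6 groups did not overlap in that comparison.

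**Figure D3:**
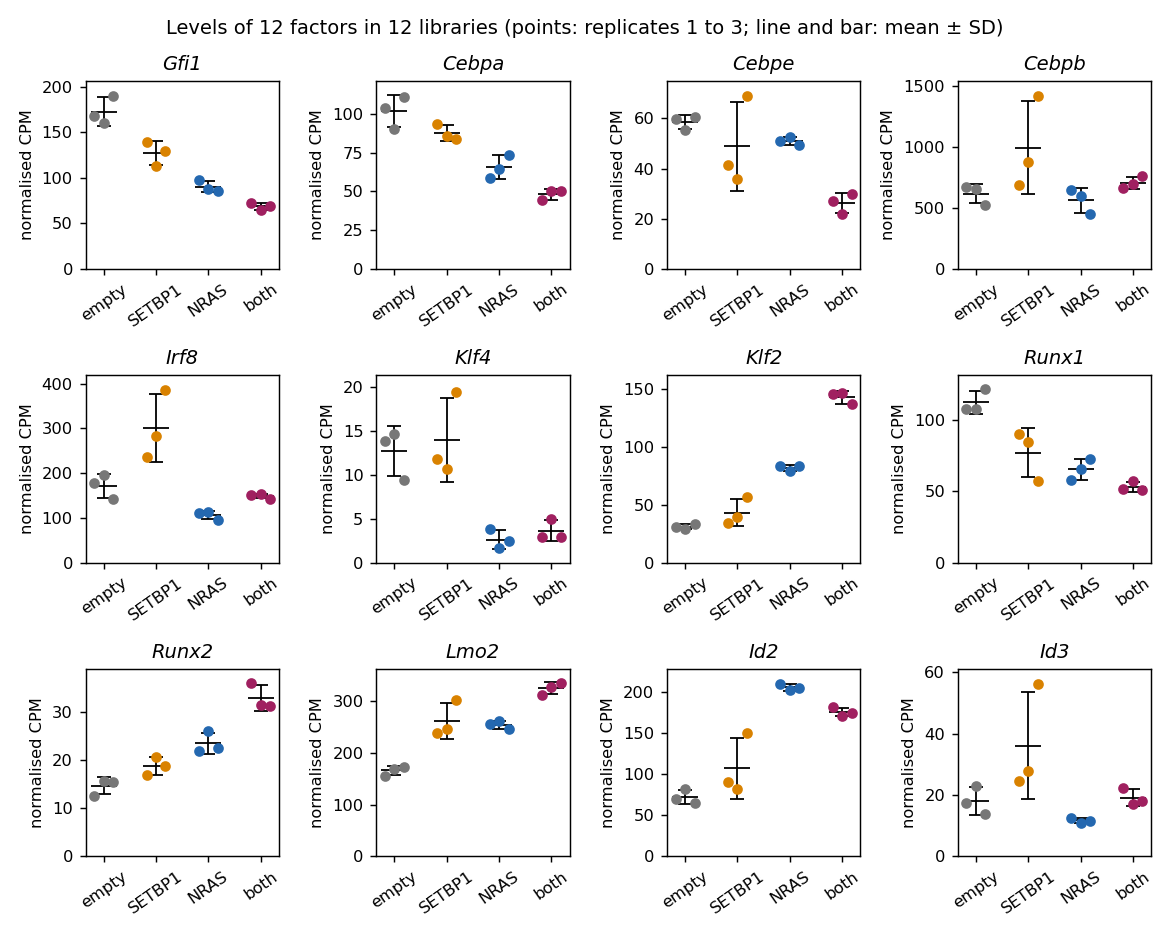
Normalised CPM of 12 factors in each library (points), with the mean and SD of the 3 libraries of each group (bars); each panel has its own linear axis. Gfi1, Cebpa and Runx1 step down and Klf2 and Runx2 step up from empty vectors to both mutants, and Cebpb, Irf8 and Id3 show 1 SETBP1 library, replicate 3, above the other 2.

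Maf, which encodes the macrophage factor c-Maf, was at 13.7, 14.2 and 14.8 with SETBP1 and 5.64, 9.27 and 4.18 with empty vectors. The groups did not overlap, and Maf rose 2.23-fold (log2 1.16, SE 0.28, adjusted p 0.0174). Spi1, the gene of PU.1, ranged from 428 to 461 with empty vectors and from 365 to 378 with both mutants, a fall of 0.26 (adjusted p 0.0347), and against empty vectors it passed the test with neither mutant alone. The Spi1 call for both mutants held in 12 of 19 alternatives and was lost with the replicate number as a block. Bcl6, a repressor with roles in macrophages and lymphocytes, was at 9.09, 9.34 and 7.13 with both mutants and 3.10, 4.32 and 3.78 with empty vectors, and rose by 1.19 (adjusted p 0.0263). That call held in 14 of 19 alternatives and was lost without empty replicate 1 or 3 or SETBP1+NRAS replicate 1 or 2. Irf4 and Zeb2, factors of dendritic cells and monocytes, did not pass the test in the main edgeR fit of all 12 libraries. Irf4 was lowest with SETBP1, at 4.82, 7.71 and 2.37, against 8.96, 10.7 and 9.99 with empty vectors, groups that did not overlap. In that comparison Irf4 was past the threshold with DESeq2, without the low-count filter and without SETBP1 replicate 2.

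Of the 14 monocyte and macrophage surface and scavenger markers, 7 rose with SETBP1 and none fell (14.9% of all genes called). With NRAS 1 rose and 9 fell (32.5% of all genes called). Their sums were 5209 to 5724 normalised CPM with empty vectors, 5797 to 7898 with SETBP1, 3924 to 4330.3 with NRAS and 3952 to 4215 with both. Although the sums with NRAS and with both overlapped, 7 of the 14 rose and 2 fell with both against NRAS (1.91% of all genes called). Against empty vectors 2 rose and 3 fell with both (40.6% of all genes called). The 9 dendritic cell markers summed to 298 to 422 with empty vectors, 574 to 1007 with SETBP1, 293 to 333 with NRAS and 353 to 378 with both. Only 4 of them could be tested. Against empty vectors 2 rose and 0 fell with SETBP1, 1 rose and 1 fell with NRAS, and 1 rose and 1 fell with both. Of all genes, 14.9%, 32.5% and 40.6% were called in these comparisons. The part of these markers in the levels of Irf8, Maf and Cebpb was not tested.

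The RUNX factors, which bind DNA with CBFβ, split. Runx1, required for the first blood stem cells, was at 108, 108 and 122 with empty vectors and 90.2, 84.5 and 57.4 with SETBP1. It was at 58.3, 66.03 and 72.9 with NRAS and 51.7, 57.2 and 50.7 with both. The empty libraries lay above all others. Runx1 fell with SETBP1 (log2 -0.54, SE 0.14, adjusted p 0.0249), with NRAS (log2 -0.78, SE 0.15, adjusted p 0.00103) and 2.12-fold with both (adjusted p 5.17e-05).

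Runx2, best known from bone and also expressed in myeloid progenitors, was at 12.6, 15.7 and 15.5 with empty vectors and 16.9, 20.6 and 18.8 with SETBP1. It was at 21.9, 25.98 and 22.6 with NRAS and 35.9, 31.4 and 31.2 with both. The 4 groups did not overlap. Runx2 rose with NRAS (log2 0.69, SE 0.14, adjusted p 0.00218) and 2.25-fold with both mutants (adjusted p 1.87e-05), and the difference of 0.36 with SETBP1 alone did not pass the test (adjusted p 0.0992). Runx3, the family member of lymphocytes and some macrophages, was at 47.4, 45.9 and 47.7 with NRAS and 38.8, 34.7 and 39.4 with empty vectors. These groups did not overlap, and the difference of 0.32 had an adjusted p of 0.0534, with 4 of 19 alternatives past the threshold.

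Within the stem and progenitor set of 11 factors, Lmo2, the bridge of the Tal1 complex, rose with each mutant. Lmo2 was at 155, 169 and 173 with empty vectors, 237, 245 and 301 with SETBP1, 255.3, 261 and 246 with NRAS and 312, 327 and 334 with both. The empty libraries lay below all others and the SETBP1+NRAS libraries above all others. Lmo2 rose 1.58-fold with SETBP1 (log2 0.66, SE 0.09, adjusted p 0.00127), 1.53-fold with NRAS (log2 0.62, SE 0.09, adjusted p 1.31e-04) and 1.96-fold with both (adjusted p 1.42e-06). Tal1, which Lmo2 binds, was at 9.91, 9.74 and 9.89 with NRAS, above all 9 other libraries, which ran from 5.06 to 9.11. Its difference of 0.52 between NRAS and empty vectors had an adjusted p of 0.0816 and was past the threshold in 3 of 19 alternatives. Lyl1, the close relative of Tal1, was at 11.9, 12.9 and 20.00 with SETBP1 and 9.29, 8.64 and 7.69 with empty vectors and rose by 0.81 (adjusted p 0.0243), a call lost without SETBP1 replicate 3 (adjusted p 0.056). The Lyl1 call was also lost without any single empty library, with only the groups compared and at a threshold of 0.01. The exons of Lyl1 overlap those of Nfix on the opposite strand, so reads in the shared stretch cannot be told apart.

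Sox4, an HMG-box factor of progenitors, was at 54.8, 56.7 and 44.96 with SETBP1 and 30.2, 32.9 and 29.6 with empty vectors. All 3 SETBP1 libraries lay above every other library, and Sox4 rose 1.69-fold (log2 0.76, SE 0.12, adjusted p 0.00303), with or without replicate 3 (log2 0.85, adjusted p 6.80e-05). On the SETBP1 background NRAS lowered Sox4 (log2 -0.64, SE 0.12, adjusted p 9.97e-04). Hhex, a homeobox factor of early progenitors, was at 69.8, 71.3 and 82.3 with NRAS and 54.1, 58.5 and 56.9 with empty vectors, and rose by 0.40 (adjusted p 0.00543).

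Myb, a driver of progenitor proliferation, and the ETS factor Fli1, which acts in stem cells and megakaryocytes, fell with NRAS. Myb was at 321, 322 and 329 with empty vectors and 194, 189.6 and 217 with NRAS, groups that did not overlap, and fell 1.62-fold (log2 -0.70, SE 0.11, adjusted p 3.72e-04). With both mutants Myb was at 160.1, 170.1 and 168, below every NRAS library, a difference of -0.27 that did not pass the test (adjusted p 0.359). Fli1 was at 168, 169 and 183 with empty vectors, 127, 129 and 95.95 with SETBP1 and 116, 107 and 103 with NRAS. Every empty library lay above every other, and Fli1 fell with SETBP1 (log2 -0.56, SE 0.10, adjusted p 0.00578) and with NRAS (log2 -0.67, SE 0.10, adjusted p 2.50e-04).

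Hlf, Erg, Etv6 and Mecom gave no call in the main edgeR fit of all 12 libraries. Hlf, the PAR-domain factor of long-term stem cells, had counts of 78, 61 and 46 with empty vectors and 32, 42 and 0 with SETBP1. The 0 in SETBP1 replicate 3 allows up to 0.355 normalised CPM (3 counts, counting error only), and the other 2 SETBP1 libraries were also below every empty library, yet the difference of -1.29 did not pass the test (adjusted p 0.166). With both mutants against empty vectors Hlf differed by -1.15 (adjusted p 0.16, and 9.71e-04 without SETBP1 replicate 3). Erg, an ETS factor of stem cells, was at 6.15, 7.55 and 6.73 with both mutants and 4.65, 2.41 and 4.72 with empty vectors, a difference of 0.79 with an adjusted p of 0.0501 that was past the threshold in 5 of 19 alternatives. Etv6, an ETS repressor, ranged from 77.4 to 134 over the 12 libraries, its lowest value again in SETBP1 replicate 3. The 9 stem and progenitor surface markers, Kit and Cd34 among them, summed to 1072 to 1183 normalised CPM with empty vectors, 1463 to 1992 with SETBP1, 1149 to 1303 with NRAS and 1469 to 1573 with both. Gene by gene the list split. Against empty vectors 4 of the 9 rose and 0 fell with SETBP1, 3 rose and 4 fell with NRAS, and 3 rose and 3 fell with both. Of all genes, 14.9%, 32.5% and 40.6% were past the threshold in these comparisons. The part of these markers in the levels of Lmo2 and Sox4 was not tested.

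Of the Ikaros family, Ikzf2, which encodes Helios, was at 12.9, 11.4 and 7.29 with empty vectors and 2.91, 5.28 and 5.32 with NRAS. The groups did not overlap, and Ikzf2 fell 2.35-fold (log2 -1.23, SE 0.29, adjusted p 0.00551). Ikzf1, the gene of Ikaros itself, lay between 53.6 and 71.8 in all libraries and in the main edgeR fit of all 12 libraries passed the test only for SETBP1+NRAS against SETBP1 (log2 0.31, SE 0.09, adjusted p 0.0167). With DESeq2 Ikzf1 was also past the threshold for both mutants against empty vectors.

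The Id inhibitors did not move as one. Id2 was at 69.5, 81.5 and 64.6 with empty vectors and 89.96, 82.2 and 150.0 with SETBP1. It was at 210.2, 202 and 205 with NRAS and 181, 171 and 175 with both. The 4 groups did not overlap, and NRAS alone gave the highest level. Id2 rose 2.86-fold with NRAS (log2 1.52, SE 0.17, adjusted p 1.79e-05) and 2.45-fold with both against empty vectors (adjusted p 4.87e-05). Its rise with SETBP1 (log2 0.58, SE 0.17, adjusted p 0.04) was largest in replicate 3 and the call was lost without it (log2 0.26, adjusted p 0.0523). The call was also lost without empty replicate 1 or 3 and without any single NRAS or SETBP1+NRAS library. Fitting only the groups compared, the replicate number as a block and a threshold of 0.01 removed it too. Its interaction term of -0.81 had an adjusted p of 0.253.

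Id3 was at 24.6, 27.7 and 55.96 with SETBP1 and 17.4, 22.9 and 13.8 with empty vectors, and rose 2.00-fold (log2 1.00, SE 0.27, adjusted p 0.0279). The groups did not overlap, and without replicate 3, the highest library, Id3 was still past the threshold with a smaller change (log2 0.53, adjusted p 0.0448). The call was lost with the replicate number as a block, in the 6 libraries alone, and without empty replicate 1 or 3. With NRAS it was at 12.6, 10.96 and 11.5, below every empty library (log2 -0.62, adjusted p 0.118; adjusted p 0.00608 without SETBP1 replicate 3). Id1 was at 103, 109 and 119 with both mutants and 73.5, 72.9 and 67.1 with empty vectors, and rose by 0.63 (adjusted p 0.00203).

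Zfpm1 encodes FOG1, the cofactor through which GATA1 acts in red cell and platelet precursors. It was at 21.5, 20.8 and 24.97 with NRAS and 17.4, 11.3 and 12.6 with empty vectors, groups that did not overlap, and rose (log2 0.70, SE 0.18, adjusted p 0.00932). With both mutants Zfpm1 was at 14.97, 19.1 and 16.95, a difference from empty vectors that did not pass the test (adjusted p 0.214).

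A further 43 blood transcription factors, listed from general knowledge as neighbours of the 34, gave 36 that could be tested. With SETBP1 against empty vectors 1 rose and 5 fell, 16.7% of the 36 against 14.9% of all genes, and with NRAS against empty vectors 4 rose and 7 fell, 30.6% against 32.5%. With both mutants against NRAS 1 rose and 2 fell (8.33% against 1.91%), against SETBP1 7 rose and 7 fell (38.9% against 42.4%), and against empty vectors 7 rose and 11 fell (50% against 40.6%). Apart from both against NRAS and both against empty vectors, these shares lay near those of all genes. The median change of the 36 stayed between -0.07 and 0.06 in these 5 comparisons. The interaction gave 0 calls among them with edgeR, and 5 were at an unadjusted p under 0.05 (13.9%, against 12.9% of all genes).

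Gata1, the master factor of red cells, platelets and mast cells and the partner of Zfpm1, was lowest with both mutants. It was at 26.6, 24.1 and 22.5 with empty vectors, 17.9, 14.6 and 19.05 with SETBP1, 13.6, 16.6 and 18.6 with NRAS and 5.04, 5.76 and 3.23 with both. The SETBP1+NRAS libraries lay below all others, and Gata1 fell against NRAS (log2 -1.80, SE 0.21, adjusted p 7.01e-04) and against empty vectors (log2 -2.38, SE 0.21, adjusted p 9.87e-07). Mast cell and basophil markers, which depend on GATA factors in those cells, summed to 2998 to 3104 normalised CPM with empty vectors, 1625 to 2303 with SETBP1, 683 to 1174 with NRAS and 355 to 538 with both, and their part in the Gata1 level was not tested.

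Ets1, an ETS factor best known from lymphocytes, fell with SETBP1 (log2 -1.31, SE 0.22, adjusted p 0.00369), with NRAS (log2 -1.05, SE 0.22, adjusted p 0.00218) and with both against NRAS (log2 -1.52, SE 0.24, adjusted p 0.00515). Its levels were 51.4, 49.02 and 65.7 with empty vectors and 9.51, 8.57 and 9.96 with both. With SETBP1 alone, Gfi1b, the relative of Gfi1 in red cell and platelet precursors, Gata2, a stem and mast cell factor, and the ETS factor Elf4 also fell, by 1.15, 0.75 and 0.71 on the log2 scale. Gata2 was lower past the threshold with NRAS (log2 -0.49) and with both mutants (log2 -1.08) against empty vectors too. With NRAS, Irf1, an interferon-responsive factor, and Cbfa2t3, a corepressor of the Tal1 complex, fell by 0.75 and 0.54. Tcf4, an E protein of plasmacytoid dendritic cells and a partner of Id proteins, rose by 0.62 with both mutants against NRAS. Against empty vectors Tcf4 also rose past the threshold with SETBP1 (log2 0.47), with NRAS (log2 0.46) and with both (log2 1.08), and it rose with both against SETBP1 (log2 0.61). Klf1, the red cell KLF factor, fell from 5.20, 7.37 and 8.10 with empty vectors to 0.839, 0.384 and 0.807 with both (log2 -3.32, SE 0.76, adjusted p 0.00307). In those SETBP1+NRAS libraries 3 counts amount to 0.420, 0.384 and 0.404 normalised CPM. The Klf1 levels there thus rest on few counts, and the size of the fall is uncertain.

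Within one library, the log2 ratio of a pair of factors is free of the library's scaling. The pairs below were chosen after the counts had been seen and are given as a description, without a test. Other pairs were also computed. Of those, Id2 over Id3 divided the libraries by mutant NRAS and Lmo2 over Tal1 by mutant SETBP1. Spi1 over Cebpa and Cebpb over Cebpa divided them by neither. Irf8 over Cebpe was 1.57, 1.81 and 1.23 with empty vectors and 2.504, 2.97 and 2.48 with SETBP1. It was 1.12, 1.10 and 0.94 with NRAS and 2.49, 2.81 and 2.27 with both. All 6 libraries with mutant SETBP1 lay above all 6 without it, and SETBP1 replicate 3, at 2.48, lay next to replicate 1. Irf8 over Gfi1 divided the libraries in the same way, from -0.42 to 0.36 without mutant SETBP1 and from 0.76 to 1.57 with it.

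Klf4 over Klf2 divided them by NRAS instead. It was -1.15, -0.97 and -1.82 with empty vectors and -1.52, -1.88 and -1.53 with SETBP1, and -4.44, -5.61 and -5.11 with NRAS and -5.63, -4.88 and -5.53 with both. Runx2 over Runx1 was -3.10, -2.78 and -2.98 with empty vectors, -2.42, -2.03 and -1.61 with SETBP1, -1.41, -1.35 and -1.69 with NRAS and -0.53, -0.87 and -0.70 with both. SETBP1 replicate 3, at -1.61, lay inside the NRAS range, and no other group overlapped another. These ratios compare the 2 genes' CPM without a length term, so their differences between groups can be read and their size within a group cannot.

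**Figure D4:**
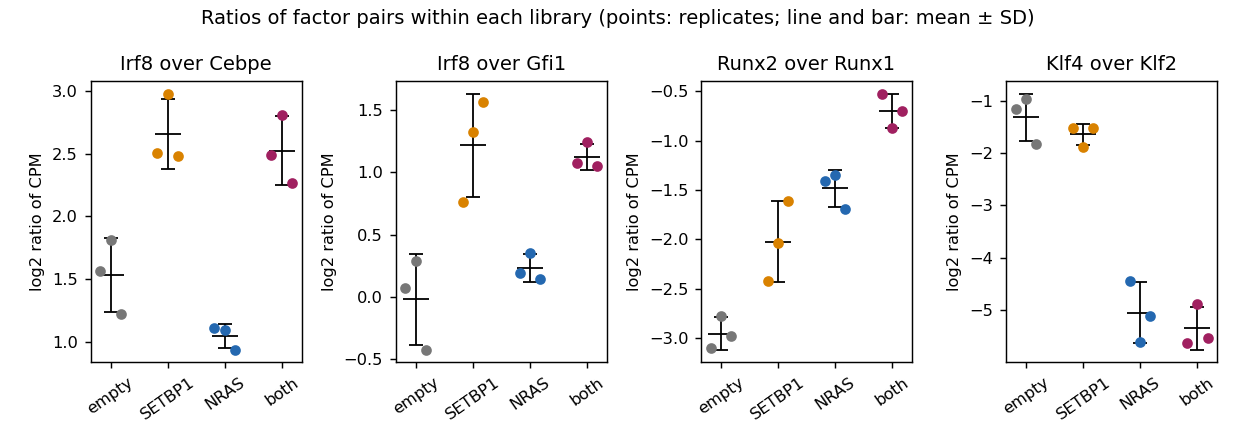
Log2 ratio of normalised CPM of pairs of factors in each library (points, vertical axis), by group, with lines at the mean and bars of 1 SD (n = 3). Irf8 over Cebpe is 2.27 or more in every library with mutant SETBP1 and 1.81 or less in every other, and Klf4 over Klf2 is -4.44 or less in every library with mutant NRAS and -1.88 or more in every other.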

How the data were processed

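Bone marrow RNA of 4 groups of 3 libraries was measured. Per the labels' protocols, total RNA was extracted on RNeasy micro columns and made into SMART-Seq libraries for ultra low input; STAR, DESeq2 and mm10 are named per the submitters' processing notes, while the counting tool, annotation and strand rule are not given in the sources used here. The authors deposited whole-number counts per gene symbol, not normalised. From these counts, edgeR 4.0.16 in R 4.3.3 fitted a quasi-likelihood model to all 12 libraries as 4 group means, with TMM scaling and filterByExpr (minimum count 10, minimum total 15). Two-sided p-values received the Benjamini-Hochberg adjustment over 10993 genes (threshold 0.05). The standard error is the absolute log2 fold change over the square root of F. The members, gene lists, motifs and pairs were chosen with earlier results of these data known. All members were named, and those past the threshold without overlap between groups were given per library, at most 8 per comparison. At most 4 other factors were picked per comparison, with a mean of at least 50 counts in the highest group. For Tcf4 and Gata2 further comparisons were also given. Exon lengths are from GENCODE M21 (GRCm38). Alternatives were DESeq2 1.42.0, 2 other scalings, no filter, only the groups compared, the replicate number as a block, a threshold of 0.01 and leaving out each library. The procedure was checked on simulated counts. Reads without molecular identifiers are not independent molecules. No library was identical to another: the smallest chi-square per gene between replicates was 2.69.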

Additional observations from a re-analysis of the deposited data

How the results depend on the processing

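No called factor reversed its direction under any of the alternatives run. For SETBP1 against empty vectors, the count of factors past the threshold moved from 12 to 2 when only the groups compared were fitted and to 4 at an adjusted p under 0.01, and ranged from 4 to 15 when 1 library was left out, the lowest without empty replicate 3 and the highest without SETBP1 replicate 1; it was 5 without empty replicate 1. For NRAS against empty vectors, 15 (32.5%) became 25 with only the groups compared (49.1%). With 1 library left out the count ranged from 15 to 24, the highest without SETBP1 replicate 3 (47.0%). For both mutants against NRAS, 2 (1.91%) became 6 with DESeq2 (3.45%) and 4 with scaling by library size alone (2.22%). The count was 15 with only the groups compared (8.37%) and 1 at an adjusted p under 0.01 (0.782%). Leaving out 1 library gave 0 to 13, the lowest without NRAS replicate 2 (0.914%). The highest came on dropping SETBP1 replicate 3 (7.52%). For both mutants against SETBP1, 25 (42.4%) became 15 at an adjusted p under 0.01 (27.7%). Leaving out 1 library gave 19 to 25 there, the lowest without SETBP1+NRAS replicate 1 (33.2%). Against empty vectors it gave 15, without SETBP1+NRAS replicate 1 (33.4%), to 23, without SETBP1 replicate 3 (53.7%). The interaction gave 0 to 2, the latter without SETBP1 replicate 3 (0.990%). Other than smaller sets of libraries and a stricter threshold, the causes were not tested. Scaling by library size alone moved the median of all genes by -0.09 for NRAS and -0.12 for both mutants against empty vectors.

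Replicate numbers did not pair the libraries: 1 of 18 pairs with the same number had deviations correlated above 0.1, and 2 of 12 libraries matched their own number best. With the replicate number as a block, the counts were 8, 15, 2, 25, 17 and 0 in the order SETBP1, NRAS, both against NRAS, both against SETBP1, both against empty vectors, and interaction. The shares of all genes were 10.7%, 30.4%, 1.49%, 40.1%, 38.9% and 0.0546% in the same order. Mecom, at 0 to 23 counts a library, was the factor of lowest depth.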

Other observations

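Among the other blood factors, 2 of low level were singled out after their values were seen. Prdm1, which encodes the repressor BLIMP1, had counts of 30, 26 and 17 with empty vectors, 24, 14 and 12 with SETBP1, 2, 1 and 2 with NRAS and 13, 14 and 4 with both mutants, and fell with NRAS against empty vectors (edgeR, adjusted p 3.29e-04). The NRAS counts are too few for a fold. Lef1, a WNT-responsive factor of lymphocytes and progenitors, had counts of 0, 1 and 0 with empty vectors, 0, 2 and 0 with SETBP1, 5, 5 and 2 with NRAS and 16, 15 and 11 with both mutants; the SETBP1+NRAS libraries lay above all the others.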
